A study of Mus musculus with 16 samples.

Results

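Angiotensin II (AngII) and L-NAME both raise blood pressure, by different routes, and left ventricular gene expression under each was compared directly here, with no control array in the contrast. The comparison rests on 8 of the 16 arrays of the series: 4 arrays of the AngII group against 4 of the L-NAME group, chosen by their labels alone. AngII mice received 0.7 mg/kg/day from a micro-osmotic pump under the skin for 4 weeks. L-NAME mice received 0.3 mg/ml in drinking water that also held 1% NaCl, for 5 weeks. The combination group (L-NAME+AngII, 4 arrays) received both, and the control group (4 arrays) neither; these 8 arrays entered the model only to estimate the spread and are used below to place the 2 treatments. All samples were left ventricle of male C57BL6 mice, 12 weeks old at assignment. The labels do not say whether the AngII mice drank salt, so agent, salt, route and length of treatment cannot be told apart in this contrast. Nor do they state that every array is a different animal. The p-values therefore rest on the spread between arrays, which may be technical, and 4 arrays a group limit the precision.

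As background, AngII is the effector peptide of the renin-angiotensin system. It acts mainly through the AT1 receptor, constricting vessels, releasing aldosterone and, in the heart, driving growth of cardiomyocytes and matrix production by fibroblasts. L-NAME blocks nitric oxide synthases, the enzymes that make nitric oxide from arginine; nitric oxide activates soluble guanylate cyclase, and the resulting cyclic GMP relaxes vessels and restrains hypertrophy. AngII infusion and L-NAME with salt are both used in mice to load the left ventricle, and the question of the contrast is which genes tell them apart.

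Levels are log2 intensities on a scale whose highest value was 15.02 and whose median was 6.90 on every array. The sources used here do not say whether they are a plain log2 or a variance-stabilising transform. A difference of 1 is a 2-fold difference only for a plain log2, and every fold below is read that way. A level above 7.13 counted as above background, and 9118 genes were tested. Of the cardiomyocyte markers, which do not tell ventricle from atrium, 9 of 10 were tested, with mean levels from 13.60 to 13.73 on the AngII arrays and from 13.63 to 13.71 on the L-NAME arrays. Atrial markers (7 of 11 tested) averaged 8.95 to 9.19 on the AngII arrays and 8.78 to 9.20 on the L-NAME arrays, above background, so these markers do not settle the ventricular label. In ventricular tissue taken whole, fewer cells of a type and less RNA per cell cannot be told apart.

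No gene told the 2 treatments apart at the threshold. By limma with Benjamini-Hochberg adjustment at 0.05, 0 of 9118 genes passed (0%), and the smallest adjusted p was 0.999. At an unadjusted p under 0.05, limma gave 219 genes (2.4%, or 382 genes with the replicate number as a block), 114 higher with AngII (1.25%) and 105 lower (1.15%). Where no gene differs, about 1 in 20 is expected at that threshold, more than the 2.4% seen. The reason for the low share was not tested. The 4 AngII and 4 L-NAME arrays did not overlap in 209 genes (2.29%): AngII lay wholly above in 102 (1.12%) and wholly below in 107 (1.17%). AngII was the higher group in 4368 genes (47.9%) and the lower in 4750 (52.1%). The median absolute difference was 0.10 log2 units, and 95% of genes differed by less than 0.39.

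The intervals bound how far apart the groups could be. For 8465 genes (92.8%) the 95% interval of the AngII minus L-NAME difference stayed within 1 log2 unit of 0, a 2-fold difference either way. For 5603 genes (61.4%) it stayed within 1.5-fold. The remaining 653 genes had intervals reaching 2-fold or beyond, and for them these arrays do not exclude such a difference. L-NAME+AngII array 4, which enters the spread behind these intervals, stood apart. With array weights, which count noisier arrays less, its weight was 0.18, against 0.57 to 2.58 elsewhere. The next lowest weights, 0.57 and 0.59, were those of AngII arrays 4 and 3, which are part of the contrast. The mean of L-NAME+AngII array 4 over the collagen genes was 8.73, against 10.02 to 10.43 in its group. Over the TCA cycle genes it was 12.06, against 11.98 to 12.09. Without this array, limma gave 334 genes at an unadjusted p under 0.05 for AngII against L-NAME (219 with it), and 0 after adjustment. Of 82 genes followed by name, 18 changed the sign of their difference when 1 AngII or L-NAME array was left out, none of them with a difference over 0.15. In 37 of the 82 the difference changed sign or moved by more than 1.5 times. Many of these genes were picked for groups apart or for a low p, which favours a stable sign. A measured difference over 1 log2 unit was seen in 2 genes, Slc37a4 and Vmn2r28, described below. In the same fit, limma called 0 genes for AngII against control (0%; 1314 at an unadjusted p under 0.05, 14.4%) and 0 for L-NAME against control (0%; 1043, 11.4%). It called 67 for the combination against AngII (0.735%), 172 for the combination against L-NAME (1.89%) and 528 for the combination against control (5.79%), 269 higher (2.95%) and 259 lower (2.84%). The plot of difference against p shows the shape of the direct contrast.

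**Figure D1:**
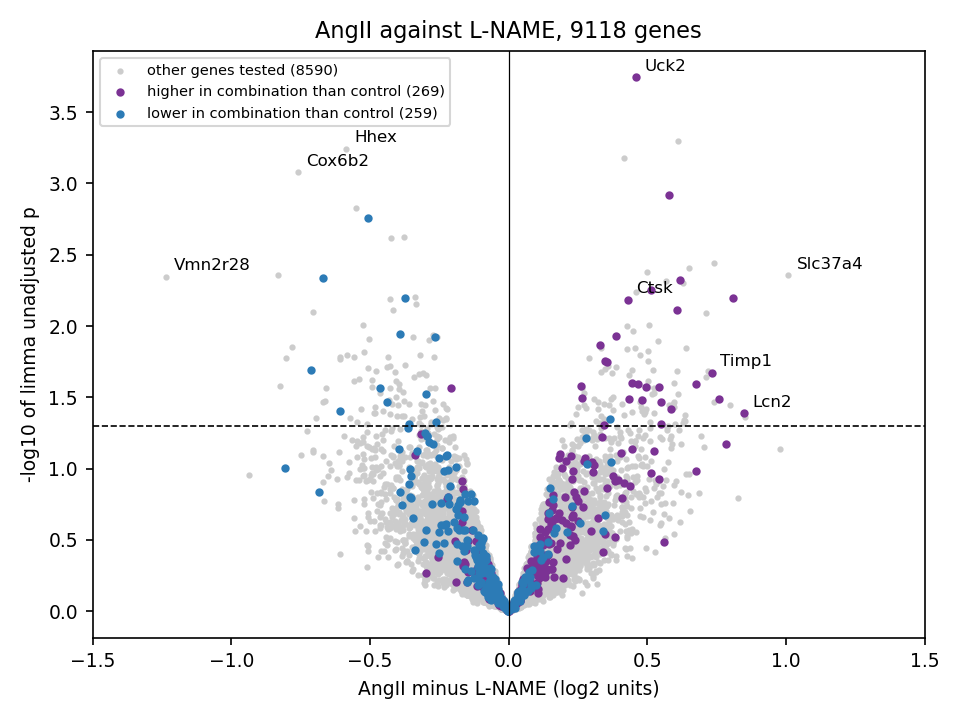
AngII minus L-NAME difference in log2 units (horizontal) against -log10 of the limma unadjusted p (vertical) for 9118 genes, with the dashed line at an unadjusted p of 0.05. Purple points are the 269 genes higher and blue points the 259 genes lower in the combination than in control; 219 genes lie above the line and none passed adjustment.

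The genes whose groups did not overlap, taken in order of unadjusted p, are given as values only, since none passed and they were picked for their separation. Uck2, the uridine-cytidine kinase of pyrimidine salvage, led them. Its levels were 13.05, 12.94, 13.07 and 12.94 on the AngII arrays, against 12.47, 12.52, 12.70 and 12.48 on the L-NAME arrays. All 4 AngII arrays were higher and each group was tight. The difference was 0.46 log2 units (95% interval 0.26 to 0.66, limma unadjusted p = 0.000181), and its 2 other probes gave 0.45 and 0.61. Uck2 averaged 13.52 in the combination and 12.45 in control (limma adjusted p = 4.24e-05 between those groups), so that the L-NAME mean of 12.54 lay near the control mean and the AngII mean of 13.00 between control and combination.

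Slc41a3, a magnesium transporter family member, read 10.75, 10.62, 10.69 and 10.76 on the AngII arrays and 10.32, 10.14, 10.44 and 10.27 on the L-NAME arrays. All AngII arrays were higher, by 0.41 on average (95% interval 0.21 to 0.62). Its other probes gave 0.46 and 0.06, so the probes disagreed in size. Unlike Uck2, Slc41a3 averaged 10.19 in the combination and 10.16 in control, below the AngII mean of 10.71. Lbp, the acute-phase lipopolysaccharide-binding protein, read 8.02, 8.09, 7.99 and 7.71 with AngII and 7.39, 7.08, 7.44 and 6.94 with L-NAME, where 2 arrays were below background. The Lbp groups were 0.74 apart (95% interval 0.28 to 1.20). Myl1, a myosin light chain of fast skeletal muscle, read 13.91, 13.30, 13.64 and 13.27 with AngII and 12.90, 13.07, 13.10 and 13.00 with L-NAME. The Myl1 groups did not overlap, and AngII array 1 was the highest; the difference was 0.51 (95% interval 0.17 to 0.85).

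Slc37a4, the glucose-6-phosphate transporter of the endoplasmic reticulum, had the largest positive difference, 1.01 (95% interval 0.37 to 1.65). It read 8.25, 8.03, 8.45 and 9.90 on the AngII arrays and 7.85, 7.75, 7.53 and 7.47 on the L-NAME arrays. AngII array 4 stood well above the rest, and without it the difference was 0.59. The other genes higher with AngII were Cops7b, a COP9 signalosome subunit (0.50), Slc25a14, a mitochondrial carrier (0.57), Hecw2, an E3 ubiquitin ligase (0.63), Wdr54 (0.61) and Kif18a, a kinesin of the mitotic spindle (0.65). For the last pair every L-NAME array was below background. Bounded by the background level, Wdr54 was at least 1.01-fold and Kif18a at least 1.06-fold higher with AngII.

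Among the genes lower with AngII, Hhex had the smallest unadjusted p. It encodes a homeobox factor of blood and endothelial lineages. It read 8.76, 8.81, 8.60 and 8.76 on the AngII arrays and 9.66, 9.14, 9.22 and 9.26 on the L-NAME arrays, a difference of -0.59 (95% interval -0.87 to -0.30, limma unadjusted p = 0.000569). The AngII arrays were all lower; the combination mean was 9.10 and the control mean 9.14. Trim72, also called MG53, a muscle protein of membrane repair, read 12.06, 12.04, 11.77 and 11.96 with AngII and 12.49, 12.15, 12.46 and 12.44 with L-NAME. All AngII arrays were lower for Trim72, with a difference of -0.43 (95% interval -0.72 to -0.14). Its mean was 12.31 in the combination and 12.52 in control. Klhl12, a substrate adaptor of a cullin ubiquitin ligase, differed by -0.55, the heme-binding protein Hebp1 by -0.38, the GTPase Drg2 by -0.34 and Hlcs, which attaches biotin to carboxylases, by -0.37.

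The other 4 genes of that group were below background on every AngII array. Cox6b2, a testis-enriched isoform of a cytochrome c oxidase subunit, averaged 6.91 ± 0.23 with AngII and 7.67 ± 0.17 with L-NAME (SD, n = 4 each). Against the background level it was at least 1.46-fold lower with AngII. Vmn2r28 had the largest negative difference, -1.24 (95% interval -2.03 to -0.45), with means of 6.07 with AngII and 7.30 with L-NAME. Vmn2r28 and Olfr1404 (-0.42) are chemosensory receptor genes whose probes belong to the set that fixed the background level. The bounds were at least 1.13-fold lower for Vmn2r28, 1.07-fold for Olfr1404 and 1.08-fold for the nuclear envelope gene Sun3. The plot of levels by array shows 8 genes that lay above background on at least 2 arrays of each group.

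**Figure D2:**
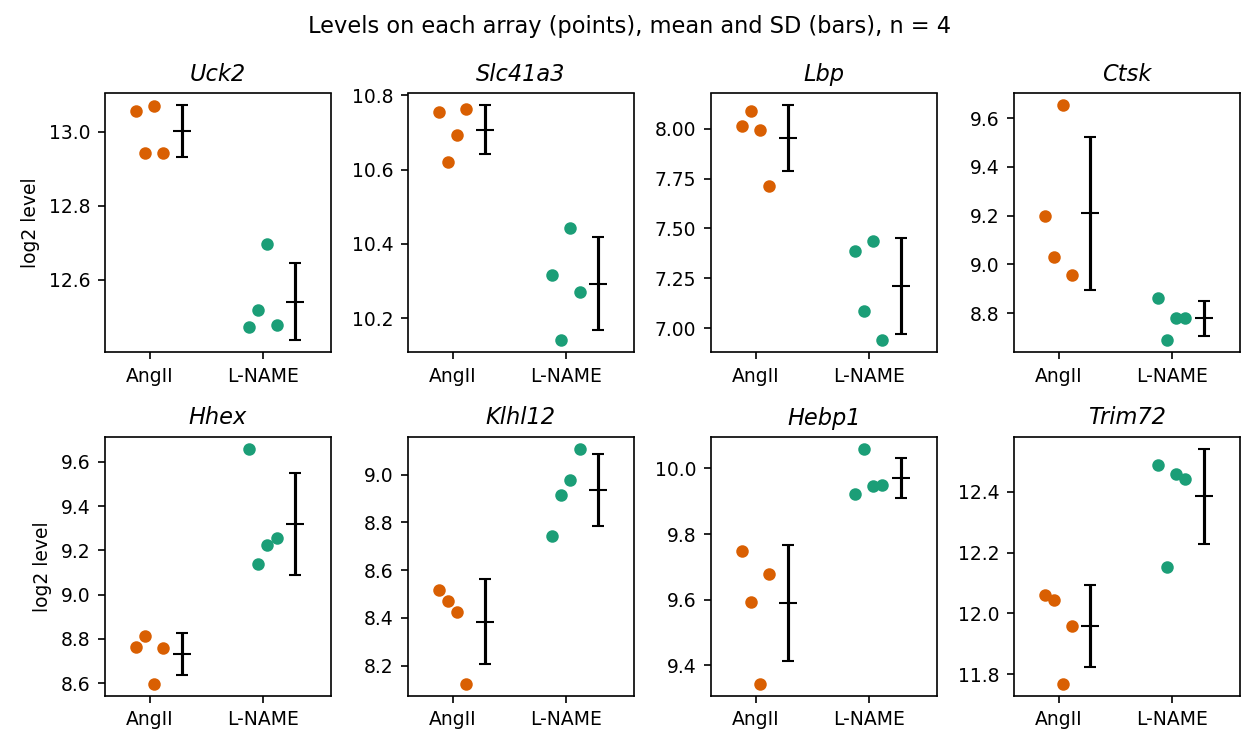
log2 level on each AngII array (orange, left) and each L-NAME array (green, right) for 8 genes whose groups did not overlap, with mean and SD (n = 4) beside the points; each panel has its own vertical scale, which does not start at 0. Uck2 lies at 12.94 to 13.07 with AngII and 12.47 to 12.70 with L-NAME, and Hhex at 8.60 to 8.81 with AngII and 9.14 to 9.66 with L-NAME.

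No gene of the systems that the 2 agents act on passed. Agtr1a, the main AT1 receptor gene of the mouse heart, read 11.51, 11.60, 11.39 and 11.44 on the AngII arrays and 11.53, 11.45, 11.77 and 11.74 on the L-NAME arrays. The groups overlapped, and the difference was -0.14 (95% interval -0.37 to 0.10). The AT2 receptor gene Agtr2, near background, differed by 0.03 (95% interval -0.61 to 0.67). Of 20 genes of the renin-angiotensin list, 8 were tested, and 5 were higher and 3 lower with AngII, with a median of 0.06. That median was -0.01 without AngII array 3, and it was 0.07 within replicates 1 and 2 and -0.12 within replicates 3 and 4. Agtrap, which binds the AT1 receptor and lowers its signalling, differed by 0.10, and the prorenin receptor gene Atp6ap2 by -0.01, with other probes from -0.04 to 0.37. Among peptidases, Mme (neprilysin) differed by 0.17 (from 0.05 without AngII array 2 to 0.35 without AngII array 4), Prcp, which cleaves AngII, by -0.07 and Ctsa (cathepsin A) by 0.11. Hsd11b1, which regenerates active glucocorticoid, differed by 0.15, and by -0.01 without AngII array 3, which read 13.01 against 12.39 to 12.40 on the other AngII arrays. Agt, the angiotensinogen gene, was too dim to be tested, at 6.94 ± 0.22 with AngII and 6.73 ± 0.49 with L-NAME (SD, n = 4 each). So was Ace, at 6.04 and 6.18.

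Nos3, the endothelial nitric oxide synthase that L-NAME inhibits, read 10.01, 9.95, 10.20 and 9.71 on the AngII arrays and 9.98, 9.94, 10.12 and 9.91 on the L-NAME arrays. The 2 sets of values interleaved, with a difference of -0.02 (95% interval -0.30 to 0.25). Its 2 dimmer probes gave 0.37 and 0.25, so the probes of Nos3 disagreed. Nos1, the neuronal synthase, was above background on 1 AngII array and no L-NAME array. The inducible Nos2 was too dim to be tested, at 7.12 ± 0.76 with AngII and 6.66 ± 0.40 with L-NAME (SD, n = 4 each).

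Of 25 tested genes of the nitric oxide and cyclic GMP list, 12 were higher and 13 lower with AngII (median -0.02, against -0.01 over all genes), and none passed. The groups did not overlap in Gch1 and Pde2a, 2 of the 25 genes, against 2.29% of all genes tested. Gch1, which makes the first intermediate of the synthase cofactor tetrahydrobiopterin, read 10.98, 10.72, 11.10 and 10.72 with AngII and 10.41, 10.58, 10.56 and 10.66 with L-NAME. All AngII arrays were higher for Gch1, by 0.33 (95% interval -0.01 to 0.67), but its other probe gave -0.34. Pde2a, a phosphodiesterase that breaks down cyclic AMP and cyclic GMP, read 8.06, 8.52, 8.65 and 8.57 with AngII and 8.69, 9.03, 9.16 and 8.73 with L-NAME. All AngII arrays were lower for Pde2a (-0.45, 95% interval -0.94 to 0.03). Of the guanylate cyclase subunits, Gucy1b1 differed by 0.33 (95% interval -0.06 to 0.72) and Gucy1a1 by 0.03. The cyclic GMP-dependent kinase gene Prkg1 differed by -0.22. Asl, which helps to recycle citrulline to arginine, read 7.16, 6.95, 7.59 and 7.44 with AngII and was below background on all L-NAME arrays, at 6.69 to 7.10. The Asl groups overlapped (95% interval of the difference -0.07 to 0.76). The caveolins that bind the synthases, Cav1 and Cav3, differed by 0.07 and 0.28. Ddah1 and Ddah2, which clear methylated arginines that inhibit the synthases, differed by 0.12 and -0.06. The arginine transporter gene Slc7a1 was above background on no AngII array and 1 L-NAME array.

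The natriuretic peptides, hormones that mark ventricular load, did not pass. Nppa, the atrial natriuretic peptide precursor, read 14.60, 14.66, 14.68 and 14.80 on the AngII arrays and 14.37, 14.67, 14.45 and 14.54 on the L-NAME arrays. The groups overlapped and the difference was 0.18 (95% interval -0.12 to 0.47). Nppb, the precursor of brain natriuretic peptide, read 14.57, 14.56, 14.87 and 14.75 with AngII and 14.73, 14.73, 14.56 and 14.83 with L-NAME, a difference of -0.02 (95% interval -0.28 to 0.23). Both lay close to the highest value of the scale. Control means were 14.09 for Nppa and 14.32 for Nppb, so the AngII minus control differences of 0.59 and 0.37 stood beside L-NAME minus control differences of 0.42 and 0.39; these share the control arrays, and none of the 4 passed (limma adjusted p from 0.0931 to 0.278). The receptors Npr1 (-0.11) and Npr3 (0.04) and Corin, which processes the Nppa product (-0.09), had intervals spanning 0, and the Npr1 difference was 0.12 without L-NAME array 4.

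Edn1, which encodes the vasoconstrictor endothelin 1, read 9.10, 9.07, 9.10 and 8.81 with AngII and 8.92, 8.55, 8.45 and 8.60 with L-NAME. Of the AngII arrays only array 4 lay within the L-NAME range. The Edn1 difference was 0.39 (95% interval 0.07 to 0.70, limma unadjusted p = 0.0195). The Edn1 mean was 9.26 in control, above both treatments. Its receptor gene Ednrb differed by 0.03, while its 2 other probes gave 0.55 and 0.06.

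No hypertrophy gene passed. The fetal myosin heavy chain Myh7 differed by 0.07, but with a wide interval of -0.93 to 1.07. The adult chain Myh6 differed by 0.03 (95% interval -0.19 to 0.26) and skeletal actin Acta1 by 0.05 (95% interval -0.26 to 0.36). Of 24 genes on the hypertrophy list, 13 were higher and 11 lower with AngII, with a median of 0.02. Fhl1 and Xirp1 had intervals above 0, 2 of the 24 genes, against 1.25% of all genes tested. Fhl1, a LIM-domain sarcomere protein, read 13.67, 13.40, 13.74 and 13.35 with AngII and 13.21, 13.17, 13.47 and 13.26 with L-NAME, 0.26 apart with overlap (95% interval 0.03 to 0.50). Xirp1, an actin-binding repeat protein of intercalated discs, read 12.23, 11.67, 11.81 and 12.08 with AngII and 11.57, 11.26, 11.59 and 11.46 with L-NAME. All AngII arrays were higher for Xirp1, by 0.48 (95% interval 0.04 to 0.92). Sarcomere genes were higher with AngII in 12 of 15, but by a median of 0.03 only.

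Most matrix genes had a higher mean with AngII, and none passed. Of 20 non-collagen matrix genes 14 were higher with AngII (median 0.14), of 19 proteases and inhibitors 13 (median 0.10) and of 12 collagens 8 (median 0.08), against 47.9% of all genes and an overall median of -0.01. The collagen median was -0.02 without AngII array 1, and it was 0.13 within replicates 1 and 2 and -0.08 within replicates 3 and 4. List means overlapped between the groups: non-collagen matrix ran from 10.38 to 10.82 with AngII and from 10.35 to 10.55 with L-NAME. Of the fibroblast markers 9 of 14 were higher with AngII (median 0.18, and 0.04 without AngII array 3), with list means from 10.32 to 10.77 with AngII and from 10.31 to 10.56 with L-NAME; their part in the matrix values was not tested, and the lists share genes.

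Ctsk, the collagen-degrading cathepsin K, had the smallest unadjusted p of the 3 matrix lists. It read 9.20, 9.03, 9.65 and 8.96 on the AngII arrays and 8.86, 8.69, 8.78 and 8.78 on the L-NAME arrays. The groups did not overlap, and AngII array 3 was the highest. The difference was 0.43 (95% interval 0.14 to 0.72, limma unadjusted p = 0.00653), and 0.28 without AngII array 3. Timp1, an inhibitor of metalloproteinases, read 9.21, 8.78, 9.60 and 8.48 with AngII and 8.65, 7.91, 8.75 and 7.82 with L-NAME. The Timp1 groups overlapped, with a difference of 0.73 (95% interval 0.13 to 1.34), and its other probe gave 0.66.

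Mgp, the matrix Gla protein that inhibits calcification, read 13.96, 14.06, 14.19 and 13.41 with AngII and 13.55, 13.55, 13.57 and 13.54 with L-NAME. On 3 AngII arrays it was above, and on array 4 below, the narrow L-NAME range, with a mean difference of 0.35 (95% interval 0.07 to 0.64). The microfibril genes Mfap5 and Mfap4 differed by 0.55 (95% interval 0.00 to 1.09) and 0.78 (95% interval -0.06 to 1.63). Lox, which cross-links collagen and elastin, read 9.46, 9.30, 10.25 and 9.13 with AngII and 8.81, 8.77, 9.50 and 9.53 with L-NAME. AngII array 3 was again the highest for Lox; the difference of 0.38 (95% interval -0.12 to 0.88) was 0.14 without it.

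The fibrillar collagens were poorly bounded. Col1a1 differed by 0.50 (95% interval -0.62 to 1.61), Col1a2 by 0.42 (95% interval -0.19 to 1.02) and Col3a1 by -0.14 (95% interval -0.90 to 0.62), which was 0.01 without L-NAME array 3. Postn, the periostin gene, was too dim to be tested, at 6.15 with AngII and 6.20 with L-NAME. Ccn2, or connective tissue growth factor, was 14.84 ± 0.09 with AngII and 14.83 ± 0.10 with L-NAME (SD, n = 4 each), a difference of 0.00 (95% interval -0.24 to 0.24). Mmp3, a metalloproteinase, differed by 0.42 with overlap. In TGF-beta signalling, the receptor gene Tgfbr1 read 11.24, 11.48, 11.48 and 11.30 with AngII and 11.26, 10.91, 11.05 and 11.24 with L-NAME, 0.26 apart with overlap (95% interval 0.04 to 0.49). Inhba, a subunit of activins, did not overlap (0.60, 95% interval -0.20 to 1.39), and the ligand gene Tgfb2 differed by 0.36.

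**Figure D3:**
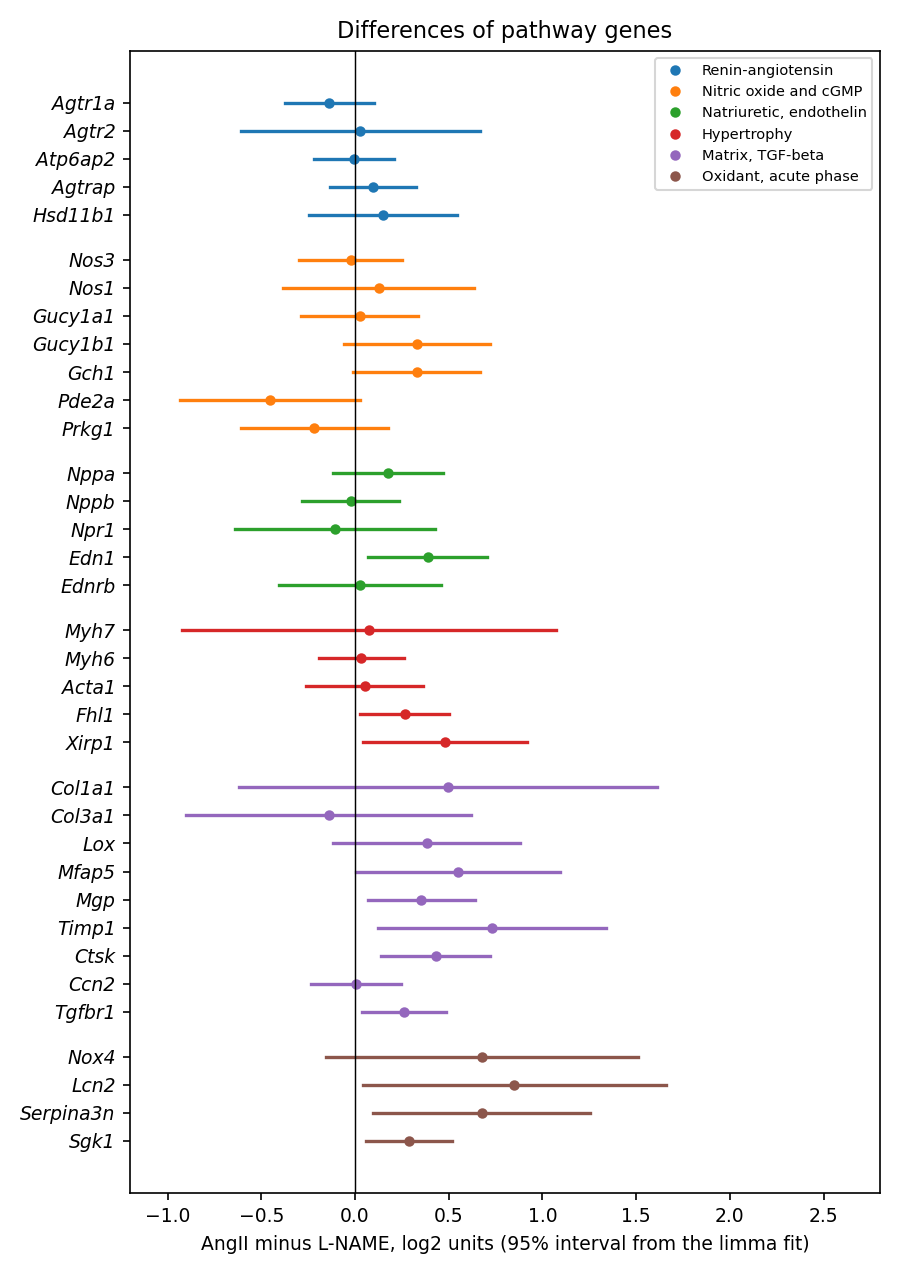
AngII minus L-NAME difference (point) with its 95% interval from the limma fit (line) in log2 units for genes of 6 groups, with positive values higher with AngII. Agtr1a, Nos3, Nppb, Myh6 and Ccn2 have narrow intervals around 0, Col1a1 and Myh7 wide ones, and Edn1, Fhl1, Xirp1, Mgp, Timp1, Ctsk, Mfap5, Tgfbr1, Lcn2, Serpina3n and Sgk1 lie wholly above 0 before adjustment. Each gene is read from its brightest probe, and the dimmer probes of Nos3 disagreed with it.

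Genes that respond to gluco- and mineralocorticoids were higher with AngII in 15 of 20, with a median of 0.15 (0.06 without AngII array 3); none passed. Sgk1, a kinase induced by aldosterone and cortisol-like steroids, read 13.68, 13.66, 13.70 and 13.48 on the AngII arrays and 13.43, 13.29, 13.28 and 13.36 on the L-NAME arrays. All AngII arrays were higher for Sgk1, by 0.29 (95% interval 0.06 to 0.52, limma unadjusted p = 0.0168). Its control mean was 13.50, between the 2 treatments. Lcn2, lipocalin 2, which is induced by mineralocorticoids and in the acute phase, read 8.98, 8.33, 9.17 and 9.38 with AngII and 7.71, 7.77, 8.94 and 8.04 with L-NAME. Only L-NAME array 3 of that group reached the AngII range for Lcn2. The difference was 0.85 (95% interval 0.04 to 1.66), and 1.13 without that array. Ddit4, a stress- and steroid-induced inhibitor of mTOR, differed by 0.34 with overlap (0.22 without AngII array 2), and Serpina3n, an acute-phase protease inhibitor, by 0.68 (95% interval 0.10 to 1.26). The list medians were 0.02 within replicates 1 and 2 and 0.26 within replicates 3 and 4.

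Nox4, an oxidase that releases hydrogen peroxide, rested on 1 array. It read 7.74, 7.30, 9.47 and 6.99 on the AngII arrays and 7.81, 7.13, 6.76 and 7.09 on the L-NAME arrays. AngII array 3 alone was far higher, and without it the difference of 0.68 (95% interval -0.16 to 1.51) was 0.15. The early growth response gene Egr1 had the same array as its highest, at 13.53 against 11.85 to 12.62 on the other AngII arrays, and its difference of 0.69 was 0.35 without it. Jund, an AP-1 subunit, ran the other way: it read 7.10, 7.62, 7.55 and 7.48 with AngII and 7.80, 8.31, 8.28 and 7.59 with L-NAME, -0.56 apart with a small overlap. Rora, a nuclear receptor of the circadian clock, read 10.75, 10.84, 10.97 and 10.89 with AngII and 10.52, 10.72, 10.42 and 10.35 with L-NAME. The Rora groups did not overlap (0.36, 95% interval 0.07 to 0.65).

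Most genes of the immune lists had a lower mean with AngII. Of 27 interferon response genes 6 were higher and 21 lower with AngII (median -0.19, and -0.12 without L-NAME array 1), of 11 antigen presentation genes 2 and 9 (median -0.17, from -0.39 without L-NAME array 3 to -0.05 without L-NAME array 2) and of 23 cytokine and acute-phase genes 7 and 16 (median -0.15, and -0.10 without L-NAME array 4). None passed. The medians of the matrix, steroid, interferon, antigen and cytokine lists kept their sign with cyclic loess and with each array centred on its median. That is a weak check, since the deposited values already share 1 distribution on every array. The interferon median, for example, was -0.18 with either scaling. The antigen presentation median was -0.24 within replicates 1 and 2 and 0.07 within replicates 3 and 4. The interferon list means ran from 9.59 to 9.62 with AngII and from 9.58 to 9.83 with L-NAME, so they overlapped. H2-Q7, a class I gene with near-identical copies that its probe may also measure, read 8.25, 8.44, 9.07 and 9.03 with AngII and 9.08, 9.26, 9.04 and 8.93 with L-NAME. Its lower mean with AngII (-0.38) came from arrays 1 and 2: within replicates 1 and 2 the difference was -0.82, and within replicates 3 and 4 it was 0.07. The chemokine gene Ccl7 differed by -0.94 with a wide interval (-2.12 to 0.24). It was the lowest of the cytokine and acute-phase list, and Lcn2 the highest (0.85). In that list 2 of 23 genes had a limma unadjusted p under 0.05, both higher with AngII, against 2.4% of all genes tested. The interferon list ran from -0.52 for Psmb8 to 0.65 for Iigp1. Macrophage markers, 15 of 20 tested, averaged 9.65 to 10.25 with AngII and 9.71 to 9.97 with L-NAME, and 1 of 15 lymphocyte markers was bright enough to test.

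Mitochondrial genes, the subject for which the series was made, gave no call either. Complex I genes were higher with AngII in 13 of 33 (median -0.03), those of complexes II to V in 15 of 40 (median -0.01, with 20 of 40 higher by centring), mitochondrial ribosome genes in 26 of 55 (median 0.00, with 28 of 55 higher by cyclic loess and by centring), fatty acid oxidation genes in 12 of 31 (median -0.04) and TCA cycle genes in 7 of 23 (median -0.06). All 33 complex I, 40 complex II to V and 55 mitochondrial ribosome genes had intervals within 1 log2 unit of 0, as did 30 of 31 fatty acid oxidation genes. The one outside was Acot2, a mitochondrial acyl-CoA thioesterase, at -0.50 (95% interval -1.36 to 0.36), with other probes at 0.05 and 0.48.

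**Figure D4:**
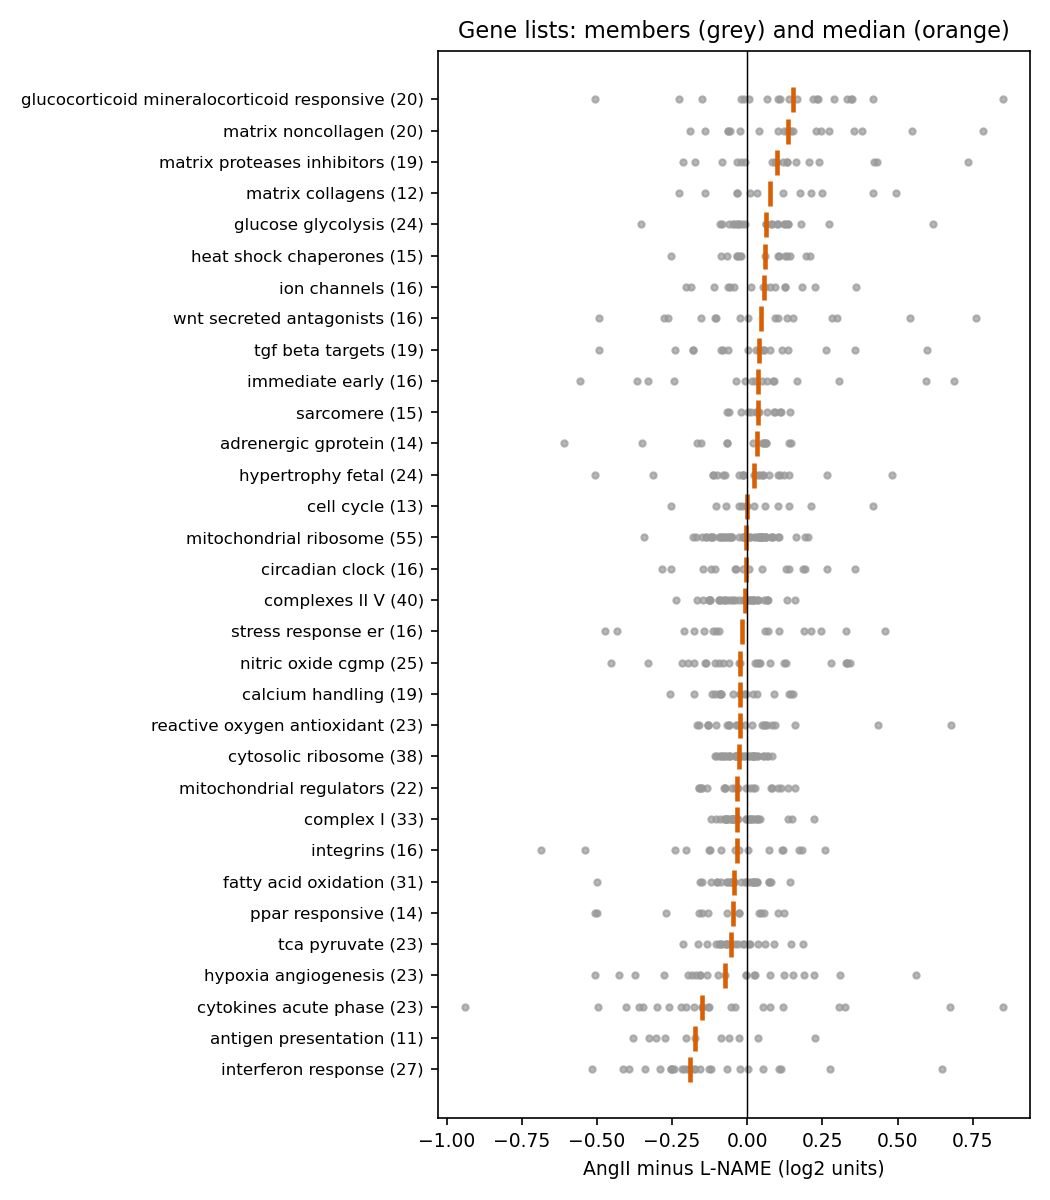
AngII minus L-NAME difference in log2 units for each tested gene (grey) of every list with at least 10 tested genes, cell type markers left out, and the list median (orange), with the number of genes in brackets. Medians run from -0.19 for interferon response to 0.15 for gluco- and mineralocorticoid-responsive genes, with wide scatter in each list; lists share genes, and no gene passed.

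The 528 genes that the combination changed against control offer a second view, since that contrast uses the other 8 arrays and shares with AngII minus L-NAME only the estimate of the spread. This view was chosen after the values were seen, and genes are not independent replicates. AngII was above L-NAME in 192 of the 269 genes higher in the combination (71.4%, median 0.10) and below L-NAME in 190 of the 259 genes lower in the combination (73.4%, median -0.06). Over the other 8590 genes AngII was above in 47.8% (median -0.01). At an unadjusted p under 0.05, limma gave 28 of the 269 genes (10.4%; 27 higher and 1 lower with AngII), 13 of the 259 (5.02%; 1 higher and 12 lower) and 2.07% of the others. The 2 genes that ran against their set were Eif2s3x, a translation initiation factor subunit (-0.21), and the clone gene 2410004B18Rik (0.37). The picking of the sets and this p use the same estimate of the spread, so genes of small spread are favoured in both. The median standard error was 0.16 in the 269 genes, 0.14 in the 259 and 0.18 in the others. The percentages at an unadjusted p under 0.05 therefore cannot be compared as they stand.

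Both treatments lay between combination and control. The genes were picked for the difference between those 2 groups, so this placing is partly built in. Averaged over the 269 genes, the arrays read 10.75, 10.66, 10.75 and 10.77 in the combination, 10.22, 10.18, 10.42 and 10.13 with AngII, 10.11, 10.05, 10.18 and 10.14 with L-NAME, and 9.88, 9.90, 9.85 and 9.91 in control. Over the 259 genes they read 10.04, 10.11, 10.01 and 9.84 in the combination, 10.40, 10.36, 10.25 and 10.40 with AngII, 10.46, 10.49, 10.38 and 10.43 with L-NAME, and 10.72, 10.67, 10.70 and 10.72 in control. The AngII and L-NAME arrays overlapped in both sets. Between arrays of equal replicate number, AngII was above L-NAME in 3 of 4 pairs over the 269 genes and below L-NAME in 4 of 4 pairs over the 259 genes. Array 3 lay nearest the combination in both sets, among the AngII arrays and among the L-NAME arrays. Among the AngII arrays it was the highest in 151 of the 269 genes and the lowest in 120 of the 259, and among the L-NAME arrays in 104 and 102. Without AngII array 3 the shares were 61.7% (166 genes) and 62.9% (163 genes). Within replicates 1 and 2 alone AngII was above L-NAME in 187 of the 269 genes and below in 188 of the 259, and within replicates 3 and 4 in 172 and 151.

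**Figure D5:**
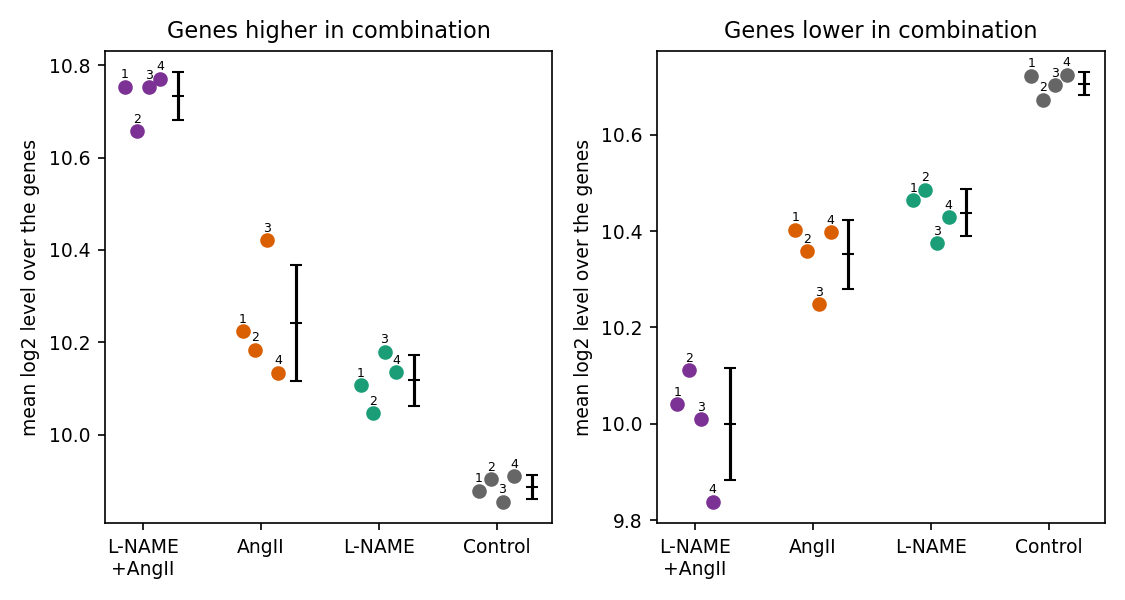
Mean log2 level of each array over the 269 genes higher (left) and the 259 genes lower (right) in the combination than in control, for the L-NAME+AngII, AngII, L-NAME and control groups; points carry their replicate number, bars are mean and SD (n = 4). AngII arrays lie at 10.13 to 10.42 and L-NAME arrays at 10.05 to 10.18 on the left, and at 10.25 to 10.40 and 10.38 to 10.49 on the right, with neither group reaching the combination or control arrays.

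Several of the matrix and stress genes above belong to the 269, and so does Dkk3, a secreted Dickkopf family protein. Dkk3 averaged 10.78 in the combination, 8.62 with AngII and 7.86 with L-NAME. Its AngII minus L-NAME difference of 0.76 (95% interval 0.07 to 1.45) was 0.54 without AngII array 3. Dkk3 is also on the list of atrial markers. The mean of that list ran from 9.26 to 10.81 on the combination arrays and from 8.83 to 10.21 on the control arrays. The part of atrial tissue in these values was not tested. Ccn5, a matricellular protein, differed by 0.54 (95% interval 0.07 to 1.01). Timp1, Mgp and Ctsk had L-NAME means (8.28, 13.55 and 8.78) below their control means (8.69, 13.73 and 9.08), and AngII means above them (9.02, 13.90 and 9.21). None of these single-treatment differences from control passed, and they share the control arrays. Timp1, Mgp and Ctsk do not stand for the set. Over the 269 genes the median difference from control was 0.32 with AngII and 0.23 with L-NAME, both above control.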

How the data were processed

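Trizol and RNeasy columns gave the total RNA of the left ventricles, which was labelled as biotinylated cRNA for Illumina BeadChips, per the labels' protocols. The tools were GenomeStudio and lumi, per the submitters' processing notes, of unstated version. The deposited log2 values of 25697 probes on 16 arrays were used as given; once sorted, their columns matched to within 0.00132, which shows quantile normalisation and fixes each array's distribution. Background subtraction is not given in the sources. Another table, with 64 per-sample columns whose names match no label, was left out.

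The platform annotation gave 23978 probes 1 symbol and 1719 none. Background was the 95th percentile of 1360 chemosensory receptor probes, 7.13. The filter asked for a level above it on 4 or more arrays (13018 probes). Each gene was read from its brightest probe (9118 genes, 2276 with several probes). limma 3.58.1 in R 4.3.3 fitted 4 group means over 16 arrays (12 residual and 3.15 prior degrees of freedom) with Benjamini-Hochberg adjustment at 0.05; all intervals are 95% intervals of that fit. Where all arrays of a group were below background, the fold is a bound against, per array, the higher of background and the probe's own value. The script was tested on simulated data.

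The groups and the 47 gene lists were chosen with earlier results of these data known. Named genes were the 10 in each direction with groups apart and the smallest unadjusted p, at most 4 genes a list by lowest p, and the tested genes of the renin-angiotensin and nitric oxide lists with 12 fixed genes; left aside were Xist, Y-linked genes, RIKEN clones and predicted models. Eif2s3x and 2410004B18Rik were named after their values were seen. Replicate numbers are shared between groups. Across genes, deviations from the group mean correlated at 0.115 to 0.452 in the 24 pairs with equal number. Within replicates 1 and 2, or 3 and 4, AngII and L-NAME arrays of different number correlated as well (median 0.260, against 0.259 for the same number). Between these 2 sets of replicates, AngII and L-NAME arrays correlated negatively (median -0.27, from -0.36 to -0.19). Deviations from a group mean cancel within each group, so this sign follows from the positive correlations within the sets. The reported fit holds no term for replicate numbers or sets, which were fitted as blocks only among the alternatives. Alternatives were other scalings, filters and variance models, array weights, blocks, 8 arrays only and leaving out each array.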

Additional observations from a re-analysis of the deposited data

Results flagged for a closer look

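Of 164 gene and group combinations looked at (82 genes in the AngII and L-NAME groups), 13 held an array that stood apart from the other 3 of its group, where chance gives about 1 in 20. In the AngII group these were Agtr2 on array 1 (6.69, others 7.28 to 7.39), Hsd11b1 on array 3 (13.01, others 12.39 to 12.40), Cav1 on array 2 (13.94, others 14.22 to 14.24), Edn1 on array 4 (8.81, others 9.07 to 9.10), Ccn2 on array 4 (14.70, others 14.87 to 14.89) and Col1a2 on array 2 (8.24, others 8.92 to 9.05). In the L-NAME group they were Drg2 on array 3 (9.79, others 9.43 to 9.46), Trim72 on array 2 (12.15, others 12.44 to 12.49), Mme on array 4 (8.02, others 7.33 to 7.42), Npr1 on array 4 (8.18, others 7.20 to 7.33), Tgfb2 on array 4 (8.31, others 8.52 to 8.54), Col3a1 on array 3 (10.19, others 9.56 to 9.63) and 2410004B18Rik on array 3 (7.86, others 8.18 to 8.21).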

How the results depend on the processing

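With 4 arrays a group the median standard error of a difference was 0.18 log2 units, and values near background or near the top of the scale are compressed. No alternative called a gene: the count was 0 with other scalings, filters, probes, variance models and weights, with the blocks, with 8 arrays and without each AngII or L-NAME array, where the smallest adjusted p was 0.243. The smallest over all alternatives was 0.105, with only the 8 arrays. The limma count at an unadjusted p under 0.05, 219 as reported, was 439 without the filter on dim probes, 340 with only the 8 arrays, 395 with array weights, 382 with the replicate number as a block (smallest adjusted p 0.503), 366 with replicates 1 and 2 against 3 and 4 as a block, 49 with a difference of at least 0.58 also required, 334 without L-NAME+AngII replicate 4, and 536 with 8 arrays and the replicate block, a choice made after seeing the data; the cause was not tested. Leaving out each AngII or L-NAME array gave 180 to 319. The replicate block was fitted for AngII against L-NAME only, where the count of calls stayed 0. The contrasts with the combination and control groups were not refitted with it. The gene counts following the combination, 192 and 190, ranged from 166 to 207 and from 162 to 202 with each such array left out; without control replicate 4 the lists themselves shrank and gave 126 of 167 and 102 of 140, and without L-NAME+AngII replicate 4 they gave 233 of 333 and 171 of 247. Across genes, the AngII minus L-NAME differences of replicates 1 and 2 and of replicates 3 and 4 had a correlation of 0.03, with the same sign in 4664 of 9118.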
